A study of Mus musculus with 6 samples.

Results

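The genes described here are 41 genes of the lysosome: its hydrolytic enzymes, their lumenal cofactors, its major membrane proteins, the proton pump that acidifies it, and the transcription factors Tfeb and Tfe3. They were chosen by name, and each name matched 1 of the 51912 gene records of the deposited tables. They were measured by RNA-seq in cells on hHVS (3 libraries) and in cells on PCL (3 libraries). In both groups the cells were mouse bone marrow mononuclear cells, the marrow fraction that holds stem, progenitor and other single-nucleus cells, grown on the material for 10 days. The genotype label of both groups reads WIDETYPE, taken here as wild type, and no agent beyond the material is named. PCL usually stands for polycaprolactone, a polyester that degrades slowly in the body, and hHVS is used as the labels write it, without a long form. The labels give no strain, age or sex of the mice and do not say if libraries sharing a material had separate cultures or donors. The p-values therefore cover the variation among these 6 libraries alone, and that variation may be technical.

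Lysosomes are membrane-bound compartments in which proteins, glycans and lipids are broken down by enzymes that work best at acid pH. The acid is made by the vacuolar-type ATPase (V-ATPase), a rotary pump whose cytosolic V1 sector burns ATP and whose membrane V0 sector carries protons. Macrophages digest what they engulf in lysosomes and are rich in these transcripts. TFEB and TFE3 are related transcription factors that are held in the cytosol by active mTORC1 at the lysosome and enter the nucleus when it is inactive. There they bind E-box motifs with the core CACGTG in promoters of many lysosomal genes, the coordinated lysosomal expression and regulation (CLEAR) network.

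Library totals ranged from 72.1 to 83.6 M units of estimated counts, or about 18.02 to 20.9 M fragments at about 4 units per fragment. The libraries were rich in macrophage transcripts: Csf1r, the receptor for macrophage colony-stimulating factor, averaged 2064 CPM in hHVS libraries and 2165 CPM on PCL, where CPM is a gene's count scaled to the library total after adjustment by TMM factors. The summed level of 11 macrophage marker genes was 23762, 22969 and 23895 CPM in hHVS libraries 1, 2 and 3, against 17689, 20640 and 19548 CPM in PCL libraries 1, 2 and 3. The lysozyme gene Lyz2 alone averaged 13298 CPM in hHVS libraries and 9682 CPM on PCL, and 10 of the 12 marker records had a positive log2 fold change. Lyz2 was the largest part of this sum, and its hHVS libraries all lay above its PCL libraries. That held for 4 of the 12 records (10.7% of all genes tested), while in 8, Csf1r and Cd68 among them, the groups overlapped. The higher sum is therefore not a rise shared by all the markers. Summed stromal markers lay between 16.5 and 80.8 CPM in hHVS libraries and between 47.2 and 183 CPM on PCL. All 8 tested had negative log2 fold changes (median -1.04). Of them 4 lay below the PCL range, 0 were lower in edgeR and 2 in DESeq2, against 9.89%, 0.299% and 1.98% of all genes tested. Summed endothelial markers were lower in every hHVS library (8.47 to 8.93 CPM, against 11.1 to 13.2 CPM on PCL). Summed markers of B and of T and NK lymphocytes were higher, at most 8.11 CPM. The cardiomyocyte gene Actc1 was at 0 counts in every library, and neither Myh6 nor Tnnt2 nor Nkx2-5 exceeded 0.103 CPM. On the second principal component of all genes, hHVS library 2 (-32.1) and PCL library 3 (-53.6) lay apart from the other 4 libraries (10.4 to 31.8). The part of these differences in the lysosomal results below was not tested. In such bulk samples fewer cells of a type and less RNA per cell cannot be told apart.

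E-box motifs in the promoters are shown first, because they are the feature by which TFEB targets are usually recognised. Promoter sequences (250 bases before to 50 after a RefSeq start, GRCm38.p6) were given for 35 of the 41 genes, and not for Npc1, Galns, Asah1, Atp6v1b2, Atp6v1c1 and Atp6v1h. A RefSeq start can lie inside the gene as GENCODE annotates it. The Atp6v1a window printed below lies within its gene (chr16:44085402-44139705), and the Naglu motif lies past its annotated gene start (chr11:101070012). The letters TCACGTG, searched on both strands and always containing the core CACGTG, occurred in a promoter of 11 of the 35 genes (31.4%). For 1 of the 11, Lgmn, the promoter with the letters belongs to a RefSeq start 721 bases inside the annotated gene, where GENCODE begins no transcript, and the promoter at its gene start lacks them. Over promoters that hold a GENCODE transcript start, 10 of 33 genes (30.3%) had them, and these 10 are printed. Of the 10426 tested genes with a promoter in the same table, 6.78% held them, and of all 32851 promoters 3.77% did. The longer palindrome with GT before and AC after the core, which contains TCACGTG, occurred in 0 of the 35 and in 0.806% of the tested genes. The core CACGTG alone occurred in the same 11 genes, and in 11.5% of the tested genes. Each line gives the part of a promoter around its motifs, 5′ to 3′ on the strand of the gene, with every TCACGTG (or CACGTGA, the same letters on the other strand) in capitals:
Lamp1 (chr8:13159085-13159166, plus strand): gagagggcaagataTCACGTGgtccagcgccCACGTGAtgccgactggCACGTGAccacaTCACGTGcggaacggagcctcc
Naglu (chr11:101070006-101070041, plus strand): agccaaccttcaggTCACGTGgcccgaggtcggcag
Glb1 (chr9:114401015-114401050, plus strand): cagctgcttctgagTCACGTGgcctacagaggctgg
Gaa (chr11:119267808-119267843, plus strand): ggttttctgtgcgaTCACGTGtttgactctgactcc
Sgsh (chr11:119355519-119355554, minus strand): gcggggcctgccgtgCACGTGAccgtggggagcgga
Arsa (chr15:89477420-89477455, minus strand): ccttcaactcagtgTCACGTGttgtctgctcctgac
Gla (chrX:134601179-134601247, minus strand): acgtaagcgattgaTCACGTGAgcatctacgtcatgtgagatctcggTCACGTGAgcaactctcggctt
Atp6v1a (chr16:44139370-44139405, minus strand): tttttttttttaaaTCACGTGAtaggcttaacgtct
Atp6v0b (chr4:117887327-117887380, minus strand): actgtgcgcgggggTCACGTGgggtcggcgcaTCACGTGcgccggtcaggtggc
Atp6v0d1 (chr8:105566047-105566082, minus strand): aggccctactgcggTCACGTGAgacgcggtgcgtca
Lamp1 carried 4 such motifs, between 61 and 15 bases before its start, and Gla and Atp6v0b carried 2 each. A match in these letters is a description of the window and not evidence of binding.

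Over the whole set, no gene passed the threshold. Log2 fold changes were positive, mostly slightly, for 16 of the 21 hydrolases, the 3 cofactors and 8 of the 12 V-ATPase genes. All 41 genes passed the filter on low counts. With edgeR's quasi-likelihood test, 0 of the 41 had an adjusted p under 0.05, against 0.862% of all 16364 genes tested (0.562% higher and 0.299% lower), and limma-voom also called 0, against 0.776%. The lowest adjusted p among them was 0.0719 (edgeR, Arsb). At an unadjusted p under 0.05 in edgeR, 14 of the 41 were higher and 0 lower on hHVS, where 6.99% and 6.14% of all genes tested were. DESeq2 put 8 of the 41 past its threshold, all higher (Arsb, Naglu, Tpp1, Glb1, Neu1, Gaa, Tfeb and Npc1), against 2.71% of all genes tested, and 0 lower, against 1.98%. The median log2 fold change was 0.15 over the 41 genes and -0.01 over all genes tested, and 31 of the 41 were positive (75.6%, against 47.8% of all genes tested). Without hHVS library 2 and PCL library 3, which leaves 2 libraries a group, 0 of the 41 passed and the median was 0.12. Only Naglu differed by 1.5-fold or more.

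The libraries were also compared by rank, without a model. In 19 of the 41 genes all 3 hHVS libraries lay above all 3 PCL libraries (46.3%), where 10.7% of all genes tested did. In 2 of the 41, Fuca1 and Atp6v0b, they lay below (4.88%, against 9.89%). Among the 4270 genes at 10 FPKM or more, abundant like 37 of the 41, the shares were 13.6% and 12.4%. Of those abundant genes 9.06% were higher and 7.92% lower by edgeR's unadjusted p, while 1.31% passed after adjustment. With library totals alone 13 of the 41 lay above and 4 below, against 6.59% and 17.3% of all genes tested, and on the deposited FPKM scale 13 and 3 did, against 6.91% and 16.2%. Groups of Sgsh, Smpd1, Ppt1, Psap, Atp6v1b2 and Atp6v1h overlapped on the FPKM scale, and statements below on overlap are for TMM-adjusted CPM.

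**Figure D1:**
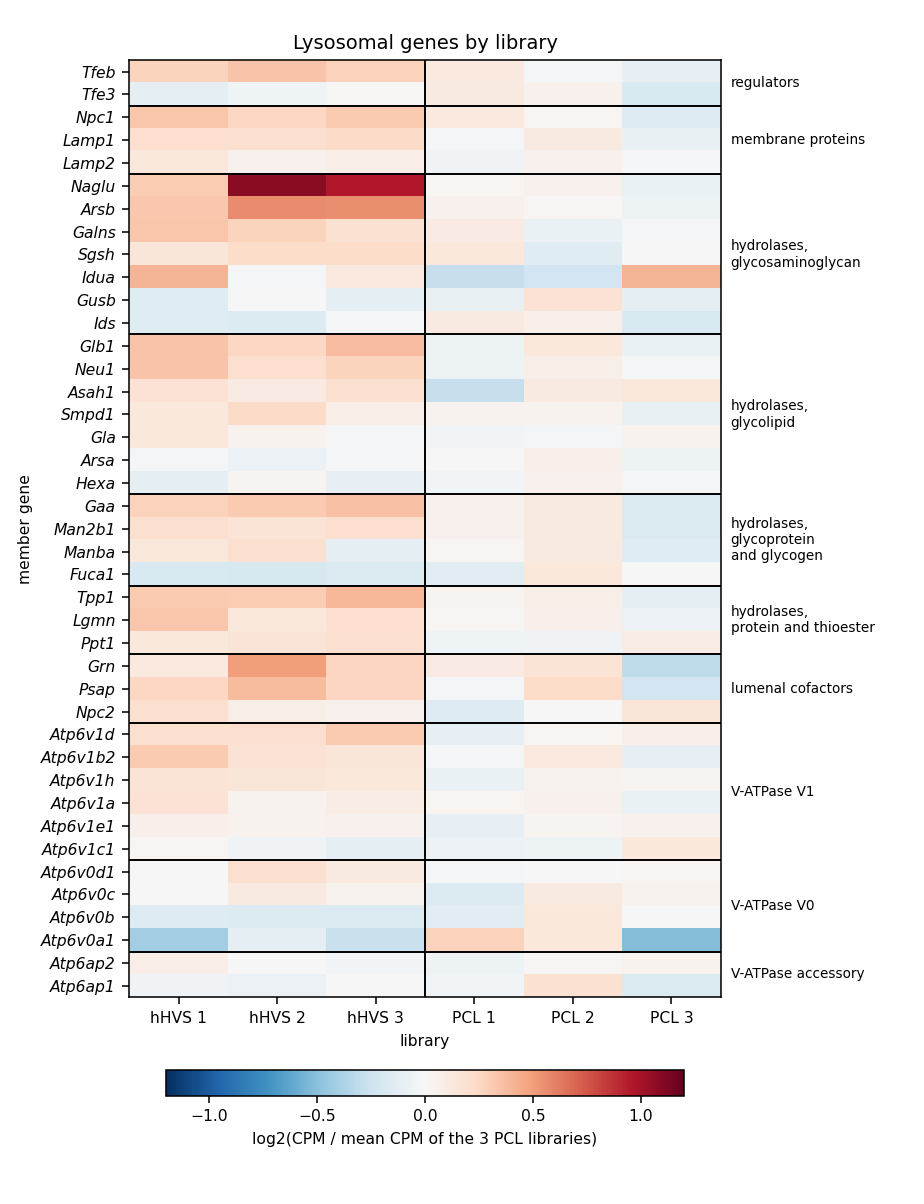
Level of each of the 41 lysosomal genes (rows, grouped by role) in each library (columns, hHVS left of PCL), as log2 of its CPM over the mean CPM of the 3 PCL libraries. Red rows on the left, such as Tpp1 and Glb1, are above all PCL libraries, whereas the rows of Idua and Atp6v0a1 vary within the PCL group.

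**Figure D2:**
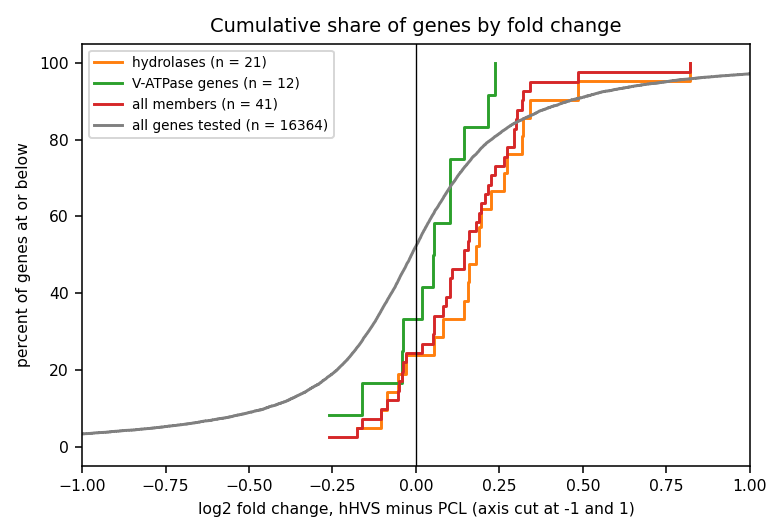
Cumulative percent of genes (vertical axis) at or below a log2 fold change, hHVS minus PCL (horizontal axis, shown from -1 to 1), for hydrolases, V-ATPase genes, all 41 genes and all genes tested. The hydrolase curve lies to the right of the curve of all genes around the medians (0.18 and -0.01), and the V-ATPase curve lies between them (0.05).

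Of the regulators, Tfeb separated the groups and Tfe3 did not, and the difference between the genes was not tested. Tfeb (ENSMUSG00000023990, chr17:47737030-47792419) was at 67.1, 70.7 and 67.6 CPM in hHVS libraries 1, 2 and 3, against 60.5, 55.0 and 52.0 CPM in PCL libraries 1, 2 and 3. All hHVS libraries were above all PCL libraries, and the log2 fold change was 0.29 ± 0.08 (SE, unadjusted 95% interval 0.11 to 0.48, adjusted p = 0.181 in edgeR). Tfe3 was at 150, 157 and 165 CPM on hHVS, against 177, 169 and 144 CPM on PCL. Its groups overlapped, with PCL library 3 the lowest of all, and the log2 fold change was -0.05 ± 0.09 (95% interval -0.27 to 0.16, adjusted p = 0.846 in edgeR), and 0.0066 without PCL replicate 1. Per length, Tfe3 was the more abundant of the pair, at 15.02 ± 0.79 FPKM (fragments scaled by gene length and library size) on hHVS and 16.3 ± 1.56 FPKM on PCL. Tfeb was at 10.7 ± 0.43 and 9.13 ± 0.71 FPKM on hHVS and PCL (SD, n = 3). These are RNA levels, and the nuclear entry of either protein was not measured.

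Among the membrane proteins, the log2 fold changes of the heavily glycosylated LAMP proteins that line the lysosome and of the cholesterol exporter NPC1 were all positive, and 0 of the 3 genes passed. Lamp1, the most abundant, was at 2170.0, 2161 and 2224 CPM in the hHVS libraries, against 1868, 2034 and 1777 CPM in the PCL libraries. The groups did not overlap, and the log2 fold change was 0.21 ± 0.07 (SE, adjusted p = 0.276 in edgeR). Npc1 was at 564, 534 and 558 CPM on hHVS, against 487, 455 and 404 CPM on PCL, again without overlap (log2 difference 0.30 ± 0.08, adjusted p = 0.188 in edgeR). Lamp2 was at 733 ± 21.7 CPM in hHVS libraries and 689 ± 23.7 CPM on PCL (SD, n = 3), with overlapping groups and a log2 fold change of 0.09 ± 0.06.

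The 21 hydrolases had a median log2 fold change of 0.18. Of them 16 were positive (76.2%, against 47.8% of all genes tested) and 0 passed in edgeR (against 0.862%). DESeq2 called 6 higher (28.6%, against 2.71%) and 0 lower (against 1.98%). In 12 the hHVS libraries lay above the PCL libraries (57.1%, against 10.7%), in 1 below (4.76%, against 9.89%), and in 8 the groups overlapped. Their summed level was 6399, 6399 and 6389 CPM in hHVS libraries 1, 2 and 3, against 5770, 6185 and 5648 CPM in PCL libraries 1, 2 and 3.

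Enzymes that degrade glycosaminoglycans, the long sulfated sugar chains of proteoglycans, included the members with the largest log2 fold changes, Naglu and Arsb. In 4 of the 7 the hHVS libraries lay above the PCL libraries and in 0 below, against 10.7% and 9.89% of all genes tested. The other 3 had overlapping groups. Naglu (ENSMUSG00000001751, chr11:101070012-101077672), which encodes the N-acetylglucosaminidase of heparan sulfate breakdown, was at 98.0, 169 and 155 CPM on hHVS, against 81.1, 82.7 and 75.2 CPM on PCL. hHVS library 1 was much nearer to the PCL libraries than hHVS libraries 2 and 3 were, although the groups did not overlap. The log2 fold change was 0.82 ± 0.19 (SE, 95% interval 0.38 to 1.26, adjusted p = 0.121 in edgeR). Without hHVS replicate 1 it was 1.02 and passed (adjusted p = 0.0211 in edgeR), the only such call among the 41 genes with any single library left out.

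Arsb (ENSMUSG00000042082, chr13:93771630-93943016), the gene of arylsulfatase B, which removes sulfate from dermatan and chondroitin sulfate, was at 73.5, 86.8 and 86.6 CPM on hHVS, against 61.0, 59.2 and 56.2 CPM on PCL. Here too hHVS library 1 was the lowest of its group and above every PCL library. The log2 fold change was 0.49 ± 0.09 (SE, 95% interval 0.28 to 0.70, adjusted p = 0.0719 in edgeR), and with 1 library left out the adjusted p ranged from 0.0871 to 0.27. Of its exon bases 39.9% are annotated on the other strand as exons of Gm26527 and Gm47210. Gm26527 had 0 counts in every library, and no level was available for Gm47210.

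Gusb, the beta-glucuronidase gene and the most abundant of these 7 per length, was at 608, 668 and 619 CPM on hHVS, against 631, 758 and 624 CPM on PCL. Its groups overlapped (log2 fold change -0.09 ± 0.09, adjusted p = 0.743 in edgeR). Of the others, the sulfatase genes Galns (log2 fold change 0.26) and Sgsh (0.20) were higher on hHVS without overlap of the groups. Ids (-0.11) and Idua (0.18), genes of the sulfatase and the glycosidase that act on iduronate, had overlapping groups. In Idua, PCL library 3 (69.5 CPM) stood at the level of hHVS library 1 (69.6 CPM), while the other libraries lay between 43.3 and 56.8 CPM.

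Enzymes of glycolipid breakdown ranged from a log2 fold change of -0.06 (Hexa) to 0.32 (Glb1). Glb1, which encodes the beta-galactosidase that acts on GM1 ganglioside, was at 126, 118 and 129 CPM on hHVS, against 95.5, 109 and 94.5 CPM on PCL (log2 difference 0.32 ± 0.08, adjusted p = 0.16 in edgeR). Neu1, the gene of the sialidase that sits with beta-galactosidase in one complex, was at 132, 120 and 125 CPM on hHVS, against 99.7, 109 and 103 CPM on PCL (0.27 ± 0.07, adjusted p = 0.173 in edgeR). Neither gene's groups overlapped. Hexa, the gene of the beta-hexosaminidase alpha chain and per length the most abundant hydrolase of the 21, was at 968, 1065 and 973 CPM on hHVS, against 1019, 1076 and 1028 CPM on PCL. Its groups overlapped, and the 95% interval of its log2 fold change ran from -0.22 to 0.11. The sphingomyelinase gene Smpd1 (log2 fold change 0.15) was higher on hHVS without overlap, and the groups overlapped for the ceramidase gene Asah1 (0.16), the alpha-galactosidase gene Gla (0.05) and the arylsulfatase A gene Arsa (-0.03).

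The exoglycosidases of glycoproteins and the glycogen-degrading acid alpha-glucosidase did not share a direction. Gaa, the gene of acid alpha-glucosidase, was at 128, 132 and 136 CPM on hHVS, against 110, 114 and 94.4 CPM on PCL (log2 difference 0.32 ± 0.09, adjusted p = 0.185 in edgeR). Fuca1, the alpha-fucosidase gene, was at 221, 218 and 224 CPM on hHVS, against 229, 273 and 248 CPM on PCL (-0.18 ± 0.08, adjusted p = 0.401 in edgeR). Thus the lowest PCL library of Fuca1 was above the highest hHVS library, and those of Gaa were the other way round. Man2b1, the alpha-mannosidase gene and per length the most abundant of the 4, was at 1037, 1016 and 1040.0 CPM on hHVS, against 936, 979 and 801 CPM on PCL (0.19 ± 0.09, adjusted p = 0.412 in edgeR). Manba, the beta-mannosidase gene, was at 60.8 ± 6.48 CPM in hHVS libraries and 57.4 ± 5.01 CPM on PCL (SD, n = 3), with overlapping groups.

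All 3 genes of protein and thioester cleavage had higher TMM-adjusted CPM in every hHVS library than in any PCL library. That held for 10.7% of all genes tested. On the FPKM scale it held for Tpp1 and Lgmn and not for Ppt1, and for 6.91% of all genes tested. Tpp1 (ENSMUSG00000030894, chr7:105744811-105752235), which encodes the tripeptidyl peptidase that trims peptides from their N-terminus, was at 421, 420 and 446 CPM on hHVS, against 346, 356 and 314 CPM on PCL. Its log2 fold change was 0.34 ± 0.07 (SE, 95% interval 0.17 to 0.51, adjusted p = 0.104 in edgeR). Lgmn, the gene of legumain, an asparaginyl endopeptidase that also processes cathepsins, was at 1188, 1039 and 1089 CPM on hHVS, against 952, 985 and 898 CPM on PCL (0.23 ± 0.08, adjusted p = 0.266 in edgeR). Ppt1, the gene of a palmitoyl-protein thioesterase, had a log2 fold change of 0.16 ± 0.07. Of its exon bases 3.51% are annotated on the other strand as exons of Cap1, an abundant gene, and no source used here says if reads were counted by strand.

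The lumenal cofactors were dominated by Psap, which encodes the precursor of the saposins, activators of sphingolipid hydrolases. Psap ranked 7th by FPKM among all genes tested, at 4279 ± 271 FPKM on hHVS and 3658 ± 506 FPKM on PCL (SD, n = 3). It was at 12838, 14083 and 12948 CPM on hHVS, against 10637, 12652 and 9225 CPM on PCL. The highest PCL library, 2, lay just below the lowest hHVS library, 1, and the log2 fold change was 0.29 ± 0.12 (adjusted p = 0.347 in edgeR). Grn, the progranulin gene, was at 1312, 1717 and 1447 CPM on hHVS, against 1298, 1353 and 981 CPM on PCL, with overlapping groups (0.30 ± 0.15, adjusted p = 0.435 in edgeR). For both genes hHVS library 2 was the highest and PCL library 3 the lowest, the same libraries that lay apart on the second principal component. Without these libraries the log2 fold change was 0.15 for Psap and 0.06 for Grn. Npc2, the gene of the lumenal sterol carrier, was at 892 ± 48.5 CPM in hHVS libraries and 828 ± 85.3 CPM on PCL (SD, n = 3), with overlapping groups. Psap held a large part of the summed level of the 41 genes, which was 29864 to 31290 CPM on hHVS against 24041 to 29125 CPM on PCL with it, and 16950 to 17213 CPM on hHVS against 14821 to 16477 CPM on PCL without it.

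**Figure D3:**
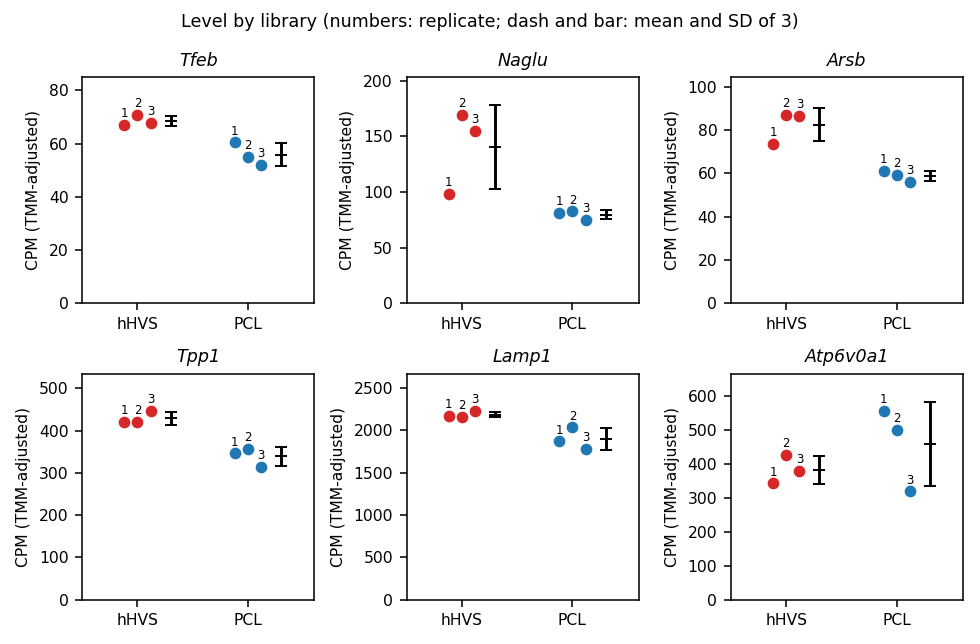
CPM (TMM-adjusted, vertical axis from 0) of 6 genes in each library, numbered by replicate, with hHVS left of PCL and the mean and SD of 3 libraries beside the points. Tfeb, Arsb, Tpp1 and Lamp1 separate the groups, Naglu has hHVS library 1 (98.0 CPM) far below hHVS libraries 2 and 3, and Atp6v0a1 overlaps because PCL library 3 is at 320 CPM.

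The 12 genes of the proton pump had a median log2 fold change of 0.05. Library totals and log2(FPKM + 1) moved the median of all genes by -0.08 and -0.05, and that of the pump genes to -0.03 and -0.02. Relative to the median of all genes, the pump genes were at 0.07, at 0.07 with library totals, at 0.05 with log2(FPKM + 1), and at 0.01 without PCL replicate 1. In the V1 sector 5 of 6 genes were positive, and in the V0 sector 2 of 4. Their summed level was 4664, 4590 and 4516 CPM in hHVS libraries 1, 2 and 3, against 4404, 4686 and 4221 CPM in PCL libraries 1, 2 and 3, and overlapped.

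In the V1 sector, Atp6v1d, the gene of a central stalk subunit, was at 104, 104 and 114 CPM on hHVS, against 85.2, 93.0 and 95.4 CPM on PCL (log2 difference 0.24 ± 0.08, adjusted p = 0.253 in edgeR). Atp6v1b2, the gene of the B subunit of the ATP-binding ring, was at 1108, 1005 and 985 CPM on hHVS, against 875, 963 and 831 CPM on PCL (0.22 ± 0.08, adjusted p = 0.326 in edgeR). These and Atp6v1h (0.15), a regulatory subunit gene, were higher on hHVS without overlap, where 10.7% of all genes tested were. Atp6v1a, the gene of the catalytic A subunit that alternates with B in the ring, had overlapping groups at 933 ± 42.6 CPM in hHVS libraries and 870 ± 40.0 CPM on PCL (SD, n = 3). The stalk genes Atp6v1e1 (log2 fold change 0.05) and Atp6v1c1 (-0.04) also had overlapping groups.

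In the V0 sector, Atp6v0b, the gene of a proteolipid subunit of the proton-carrying ring, was at 272, 271 and 270 CPM on hHVS, against 278, 330 and 302 CPM on PCL (log2 difference -0.16 ± 0.08, adjusted p = 0.437 in edgeR). The hHVS libraries were nearly equal and all below the PCL libraries. Atp6v0d1, a subunit gene that couples ring and stalk, was at 207, 238 and 224 CPM on hHVS, against 206, 207 and 211 CPM on PCL, with overlapping groups (0.10 ± 0.07, adjusted p = 0.607 in edgeR). Atp6v0a1, the gene of an a subunit that forms the proton half-channels, had the widest PCL range of the V0 genes, with 343, 426 and 381 CPM on hHVS against 556, 502 and 320 CPM on PCL. Without PCL replicate 3 its log2 fold change was -0.46, against -0.26 with all libraries. Naglu, the gene with the largest positive fold change, lies 6292 bases downstream of Atp6v0a1 on the same strand of chromosome 11. The main ring gene Atp6v0c was at 469 ± 18.1 CPM in hHVS libraries and 453 ± 43.0 CPM on PCL (SD, n = 3), and 10.8% of its 50-base words occur in other genes, most in Atp6v0c-ps2.

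Among the accessory proteins of the pump, Atp6ap1, whose product takes part in V0 assembly, was at 290, 286 and 298 CPM on hHVS, against 293, 340 and 265 CPM on PCL (log2 difference -0.04 ± 0.10, adjusted p = 0.894 in edgeR). Atp6ap2, the gene of the prorenin receptor, was at 278, 263 and 255 CPM on hHVS, against 252, 264 and 270 CPM on PCL (0.02 ± 0.07, adjusted p = 0.936 in edgeR). Both genes' groups overlapped, and their unadjusted 95% intervals ran from -0.27 to 0.19 and from -0.14 to 0.18.

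**Figure D4:**
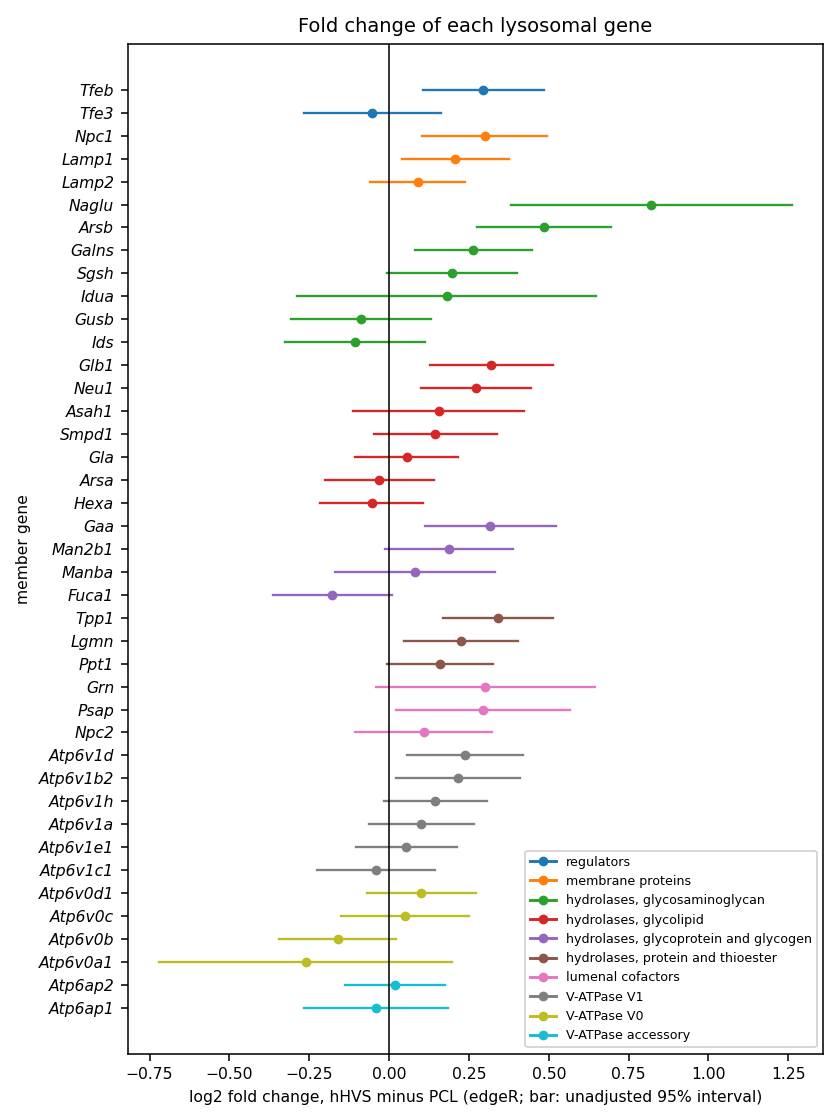
Log2 fold change (hHVS minus PCL, edgeR, horizontal axis) of each of the 41 genes with its unadjusted 95% interval, coloured by role. Intervals of 27 genes include 0, and Naglu (0.82) and Arsb (0.49) lie farthest to the right.

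Several subunits of the pump are encoded by more than 1 gene, and their levels were compared per length. Among the a subunits, Tcirg1 (a3, the form known from osteoclasts and macrophage lysosomes) was the most abundant per length, at 145 ± 4.19 FPKM on hHVS and 168 ± 10.3 FPKM on PCL. Atp6v0a1 (a1) was at 51.7 ± 6.28 FPKM on hHVS and 64.9 ± 17.0 FPKM on PCL. Atp6v0a2 (a2) was at 7.56 ± 1.66 FPKM on hHVS and 6.51 ± 1.09 FPKM on PCL, and Atp6v0a4 (a4, a form of kidney) was at 0 in all libraries (SD, n = 3). The ratio of Tcirg1 to Atp6v0a1 averaged 2.83 ± 0.27 on hHVS and 2.71 ± 0.72 on PCL, with PCL libraries from 2.06 to 3.49.

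Of the d subunits, Atp6v0d2, the form of osteoclasts and macrophages, was at 250.1 ± 18.3 FPKM on hHVS and 226 ± 51.3 FPKM on PCL, and Atp6v0d1 was at 110 ± 9.14 FPKM on hHVS and 108 ± 3.26 FPKM on PCL. Thus d2 was the higher of the pair in all 6 libraries, with ratios from 2.08 to 2.64 on hHVS and from 1.503 to 2.47 on PCL. Of 7 marker genes of osteoclasts and fused macrophages 5 were tested. In edgeR 0 were called higher and 1 lower, where 0.562% and 0.299% of all genes tested were. DESeq2 called 1 higher and 1 lower, against 2.71% and 1.98%. The lower gene was Dcstamp, which encodes a protein needed for cell fusion. It was at 6.17, 8.04 and 8.49 CPM on hHVS, against 32.4, 61.6 and 29.8 CPM on PCL (-2.45 ± 0.30, adjusted p = 0.0165 in edgeR, and 0.0128 to 0.0871 with 1 library left out, under 0.05 in 3 of 6 fits). Acp5, the tartrate-resistant phosphatase gene, went the other way without overlap of the groups. It averaged 28.9 CPM in hHVS libraries and 19.7 CPM on PCL (adjusted p = 0.199 in edgeR and 0.0317 in DESeq2). Calcr was at 0 in all libraries. The summed level of the list lay between 220 and 235 CPM in hHVS libraries and between 180 and 321 CPM on PCL, and its part in the levels of the pump genes was not tested. Restricted forms of V1 subunits were near absent: Atp6v1b1 and Atp6v1e2 had 0 counts in all 6 libraries, and Atp6v1c2 and Atp6v1g3 did not exceed 6 units in any. A count of 0 allows up to 3 fragments, or 0.144 to 0.166 CPM in a single library, for counting error only. Atp6v1b2, Atp6v1c1, Atp6v1e1 and Atp6v1g1 thus supplied nearly all B, C, E and G subunit RNA, at 172, 112, 49.9 and 152 FPKM on hHVS and 155, 121, 50.5 and 148 FPKM on PCL.

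**Figure D5:**
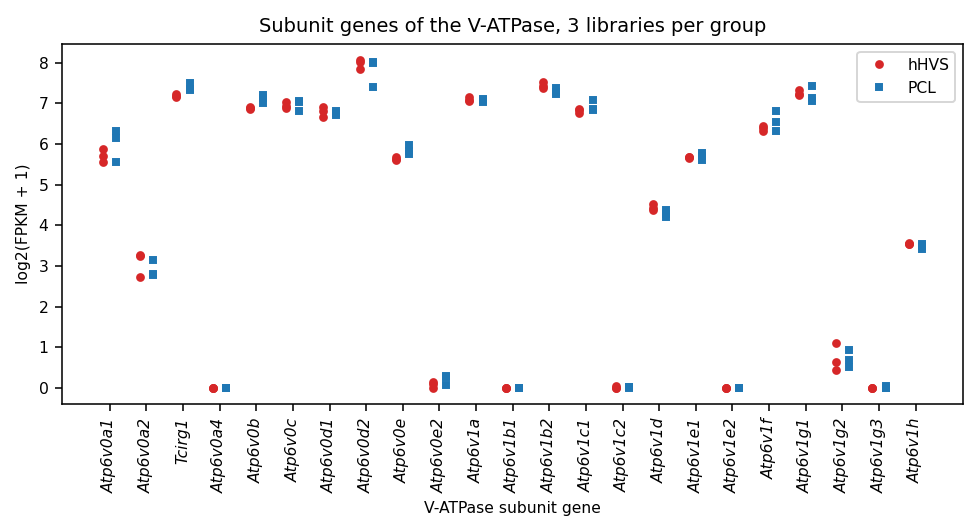
Level of 23 V-ATPase subunit genes as log2(FPKM + 1), with the 3 hHVS libraries (circles, left) beside the 3 PCL libraries (squares, right) of each gene. Tcirg1 lies above Atp6v0a1 and Atp6v0a2, Atp6v0d2 above Atp6v0d1, and Atp6v0a4, Atp6v1b1 and Atp6v1e2 at 0.

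The levels of the 41 genes spanned a wide range per length. The order began with Psap, Lamp1, Hexa, Lgmn and Grn, all among the 100 most abundant genes tested, and ended with Arsa, Smpd1 and Manba at 8.45, 8.30 and 7.69 FPKM on hHVS and 9.06, 7.88 and 7.63 FPKM on PCL. Smpd1 and Manba did not differ beyond their SDs in either group (0.31 to 0.84 FPKM). Arsa and Smpd1 lay within their SDs on hHVS (0.12 and 0.53 FPKM) and outside them on PCL (0.19 and 0.31 FPKM). Psap, in contrast, stood far above Lamp1, at 721 ± 13.9 FPKM on hHVS and 656 ± 31.5 FPKM on PCL. The libraries of a group were close to each other in these genes, with a median coefficient of variation of 4.54% on hHVS and 7.65% on PCL, against 5.06% and 8.78% over all genes at 10 FPKM or more.

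The E-box motif and the difference between materials were set side by side as a description, over the 33 genes with a promoter at a GENCODE transcript start. Of the 10 with TCACGTG, 5 lay above the PCL range in all hHVS libraries (Naglu, Glb1, Gaa, Sgsh and Lamp1), 1 below (Atp6v0b), and 4 overlapped. Of the 23 without it, 10 lay above, 1 below, and 12 overlapped. Over all genes tested 10.7% lay above and 9.89% below. The median log2 fold change was 0.15 with the motif and 0.15 without. This near equality depended on the genes kept. Over all 35 genes with a promoter, the median was 0.20 for the 11 with the motif and 0.10 for the 24 without. Of those 11, 6 lay above and 1 below, and of those 24, 9 lay above and 1 below. The difference was not tested.

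Other genes of the pathway were taken from 6 lists, 101 genes in all, and 1 passed in edgeR (0.862% of all genes tested did). The first list held 20 further genes of hydrolases or of proteins that work with them (Gm2a, Hgsnat and Sumf1, which encode no hydrolase). Of these 20 genes 0 passed, 16 were positive (median log2 fold change 0.17), and 10 lay above the PCL range in all hHVS libraries while 2 lay below. Over all genes tested 10.7% lay above and 9.89% below. DESeq2 called 4 of the 20 higher and 1 lower, against 2.71% and 1.98% of all genes tested. The 1 lower was Hgsnat, whose enzyme acts beside that of Naglu in heparan sulfate breakdown, named here after its values were seen. It was at 269, 214 and 247 CPM on hHVS, against 346, 327 and 441 CPM on PCL (-0.61 ± 0.13, adjusted p = 0.11 in edgeR and 0.00142 in DESeq2). Hyal1, a hyaluronidase gene, was at 26.0, 21.8 and 27.3 CPM on hHVS, against 12.6, 13.4 and 17.9 CPM on PCL (0.78 ± 0.16, adjusted p = 0.0877 in edgeR), and passed without PCL replicate 3 (0.0356). Lipa, the acid lipase gene and the most abundant of that list, was at 1007 ± 52.0 FPKM on hHVS and 999 ± 27.9 FPKM on PCL, with overlapping groups. Of 20 further genes listed with the membrane proteins 15 were positive (median 0.06). The hHVS libraries lay above the PCL range in 6 and below it in 1, against 10.7% and 9.89% of all genes tested. In edgeR 0 of the 20 passed, and 1 was higher in DESeq2, where 2.71% of all genes tested were. Cd68, the most abundant of them and itself a macrophage marker, was at 2224 CPM in hHVS libraries and 2132 CPM on PCL, with overlapping groups.

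Of the 13 further V-ATPase subunit genes 8 were tested and 0 passed (median log2 fold change 0.00). Atp6v0e, a small V0 subunit gene, had the smallest p of them and was lower in all hHVS libraries (177, 177 and 184 CPM, against 186, 199 and 214 CPM on PCL; -0.15 ± 0.08, adjusted p = 0.439 in edgeR). Of the 8 assembly factor genes 0 passed in edgeR and 3 were higher in DESeq2, where 2.71% of all genes tested were (median 0.23). Tmem9 was at 12.3, 13.6 and 11.4 CPM on hHVS, against 9.02, 6.75 and 8.41 CPM on PCL (0.62 ± 0.15, adjusted p = 0.129 in edgeR). The RAVE-like complex gene Wdr7, per length the most abundant of that list over all 6 libraries, was at 150, 131 and 148 CPM on hHVS, against 123, 121 and 92.8 CPM on PCL (0.35 ± 0.12, adjusted p = 0.276 in edgeR).

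Of 19 genes of the Tfeb family and of its upstream regulators, 0 rose and 1 fell in edgeR, and DESeq2 called 1 higher and 1 lower (median 0.13). Over all genes tested, edgeR called 0.562% higher and 0.299% lower, and DESeq2 2.71% and 1.98%. The gene that fell, Rragb, encodes a Rag GTPase, one of the proteins that bring mTORC1 and TFEB to the lysosome. It was at 0.333, 0.218 and 0.261 CPM on hHVS, against 1.27, 1.19 and 1.15 CPM on PCL (log2 difference -2.14 ± 0.32, adjusted p = 0.0374 in edgeR), which is 18 to 24 units on hHVS and 86 to 97 units on PCL. It missed the threshold whichever library was left out (adjusted p 0.0683 to 0.168 in edgeR). The gene higher in DESeq2 was Rragd, another Rag GTPase gene, named after its values were seen. It was at 35.9, 38.5 and 37.9 CPM on hHVS, against 27.0, 23.5 and 18.3 CPM on PCL (0.71 ± 0.14, adjusted p = 0.0839 in edgeR and 3.49e-04 in DESeq2). Of 21 autophagy genes 0 passed (median 0.03). Wipi1 was at 26.4, 28.3 and 23.8 CPM on hHVS, against 22.4, 20.8 and 21.7 CPM on PCL (0.27 ± 0.09, adjusted p = 0.27 in edgeR), and the abundant Gabarap overlapped between groups at 186 ± 5.08 FPKM on hHVS and 191 ± 14.5 FPKM on PCL (SD, n = 3).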

How the data were processed

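Per the labels, the 6 libraries were made with a stranded kit after oligo-dT selection of mRNA, 1 per sample. The authors deposited whole-number estimated counts per gene and, in a second table, FPKM. The submitters' processing notes name FastQC, MultiQC, STAR, featureCounts and mm10, with no role or order, and no source used here says which program made each table. Low values of the count table peaked at multiples of 4 (6544 cells held 4, against 2701 with 3 and 1483 with 5), so 1 fragment was taken as about 4 units. The fixed design had counts in mind, and the rounded estimated counts were used in the same test.

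Genes were filtered with filterByExpr (minimum count 10) and scaled with TMM factors (0.959 to 1.05). hHVS was compared with PCL over all 16364 genes by the quasi-likelihood test of edgeR 4.0.16 (R 4.3.3), fitted on the material alone, with Benjamini-Hochberg adjusted p under 0.05 taken as passing. Standard errors are the absolute log2 fold change over the square root of F. DESeq2 1.42.0, limma 3.58.1 and other scalings were alternatives, and the fits were checked on simulated data. Members, lists and classes were chosen with earlier results of these data known. Full values are given for Tfeb, Tfe3 and, in each class, for the 2 genes with the smallest p and the most abundant one, and in each pathway list for up to 3 genes past the threshold or else the most abundant and the smallest p. A gene that this rule names is not reported here. Coordinates of genes are from GENCODE M21 (GRCm38, the assembly of mm10). Libraries of a group were distinct (chi-square per gene at least 11.7).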

Additional observations from a re-analysis of the deposited data

How the results depend on the processing

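The 41 lysosomal genes gave 0 calls in edgeR, 8 in DESeq2, and 0 to 1 with 1 library left out, while all genes gave 141 in edgeR, 767 in DESeq2, 76 with no low-count filter, 36 with the replicate block, 88 with log2(FPKM + 1), 90 with log2(FPKM + 0.1), 32 to 154 with 1 library left out, and 66 without hHVS replicate 2 and PCL replicate 3 (an alternative chosen after seeing the data). Same-numbered libraries did not deviate together (correlations 0.117, -0.0095 and -0.061), and hHVS replicate 2 correlated best with PCL replicate 3 (0.153), so numbers were not taken as pairs, and the replicate block left 0 of the 41 called. Library totals moved the median of all genes by -0.08, log2(FPKM + 1) by -0.05 and log2(FPKM + 0.1) by -0.07, and relative to that median the 41 genes were at 0.16, 0.16, 0.14 and 0.15 (with TMM first) and the hydrolases at 0.19, 0.19, 0.19 and 0.20. The median log2 fold change over the 41 genes was 0.15, 0.0653 with library totals, 0.0679 with log2(FPKM + 1) and 0.0739 with log2(FPKM + 0.1). For the hydrolases it was 0.18, 0.0935 with library totals, 0.1199 with log2(FPKM + 1) and 0.1209 with log2(FPKM + 0.1). For the V-ATPase genes it was 0.05, -0.0283 with library totals, -0.0166 with log2(FPKM + 1), -0.0168 with log2(FPKM + 0.1), and -0.00091 to 0.0853 with 1 library left out. Genes below the PCL range numbered 2, and 4 with library totals. Signs turned for some genes near 0. With library totals the values were -0.0271 for Gla and for Atp6v1e1, -0.0295 for Atp6v0c, -0.0633 for Atp6ap2, -0.02004 for Cd68 and -0.0466 for Gabarap. With log2(FPKM + 1) they were -0.0174 for Gla and for Atp6v0c, -0.0158 for Atp6v1e1, -0.0529 for Atp6ap2, -0.0096 for Cd68 and -0.0345 for Gabarap, and with log2(FPKM + 0.1) -0.0177, -0.0175, -0.016, -0.0534, -0.0096 and -0.0347 in the same order. Over the fits that left out libraries, the pair above included, the log2 fold change spanned 0 for Gusb (-0.177 to 0.0099), Arsa (-0.0585 to 0.0013), Manba (-0.0408 to 0.168), Atp6v1c1 (-0.0772 to 0.0303), Atp6v0c (-0.0246 to 0.108), Atp6ap1 (-0.12 to 0.0604), Atp6ap2 (-0.0166 to 0.0502), Tfe3 (-0.134 to 0.0066) and Gabarap (-0.0084 to 0.11). Calls over all genes split into 92 higher and 49 lower, and into 71 and 74 with library totals. The cause of these changes was not tested. SEs of the 41 genes ran from 0.0637 to 0.20, so with 3 libraries a group differences of the size seen here (median 0.15) were within a few SEs of 0.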
